A study of Drosophila melanogaster with 10 samples.

Results

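Long noncoding RNA genes were followed here in cultured Drosophila melanogaster embryonic cells sorted by fluorescent reporters meant to mark neurons. The group holds every probe set on the array whose only annotated gene symbol begins with lncRNA: or asRNA:, with the probe set of the highest mean over the 10 arrays standing for a gene. The rule found 88 genes (75 lncRNA: and 13 asRNA:, on 105 probe sets) among the 11982 genes with a symbol of their own. Another 9 probe sets name such a gene together with a second gene and were not counted. For 13 of the 88 genes the probe set is of the s_at or x_at kind, whose probes can match more than 1 transcript.

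A long noncoding RNA is a transcript of some length with no long open reading frame, and an antisense RNA (asRNA:) is copied from the strand opposite another gene. In the fly such transcripts act in several known ways: some are the precursors of microRNAs or host small nucleolar RNAs, some regulate Hox genes, some assemble nuclear proteins, and some are carried into 1 daughter of a dividing neural stem cell. Most have no assigned function, and many are made at low levels or in few cells of the nervous system.

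Cells were dissociated from early gastrula embryos, cultured, and sorted by fluorescence (FACS), and RNA of the sorted fractions was hybridised to Affymetrix arrays. The 5 Cha samples carried 7.4 kb Cha-Gal:UAS-GFP, a strain in which regulatory DNA of the choline acetyltransferase gene drives a green reporter through Gal and UAS. The 5 Gad samples carried 2.1 kb Gad1(s)-RFP, a strain in which regulatory DNA of the glutamate decarboxylase gene Gad1 drives a red reporter directly. In both groups the cultures are given as 5 to 7 days old in the labels (up to 8 days in the growth protocol) and the adults kept for collection as 2 weeks old. Driver, reporter and strain therefore differ together between Cha and Gad and cannot be told apart from the cell type. The labels do not say that samples of a group are separate cultures, so p-values reflect the spread of these samples alone, and that spread may be technical.

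Values are log2 RMA signals. Array medians lay between 5.7 and 5.78, and the 40th percentile of an array, the level used here to call a transcript expressed, between 4.77 and 4.84 in Cha and between 4.75 and 4.82 in Gad. Pairs of arrays correlated at 0.971 to 0.99 within Cha, 0.989 to 0.997 within Gad and 0.954 to 0.983 between the groups. ChAT, the acetylcholine-synthesis enzyme, averaged 11.39 ± 0.44 in Cha and 10.71 ± 0.39 in Gad (limma, adjusted p = 0.067). VAChT, the acetylcholine transporter gene, averaged 8.04 ± 0.21 in Cha and 7.82 ± 0.36 in Gad (adjusted p = 0.43). Both means were higher in Cha, neither with an adjusted p under 0.05. Gad1 averaged 12.49 ± 0.30 in Cha and 12.37 ± 0.19 in Gad (adjusted p = 0.626), and the GABA transporter gene VGAT 8.32 ± 0.52 in Cha and 7.83 ± 0.29 in Gad (adjusted p = 0.186; SD, n = 5 each), so neither of the GABA markers was higher in the sample labelled for it. Of 9 measured neuronal markers all were above the percentile on all arrays, and 7 were higher in Cha.

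Most long noncoding RNA genes lay at the bottom of the measured range. Their median level was 4.08, against 7.42 for all 11982 genes. On all 10 arrays 17 of 88 genes (19.3%) were above the 40th percentile, against 8303 of all genes (69.3%). On at least 5 arrays 24 were above it (27.3%, against 74.6% of all genes), and on no array 60 (68.2%, against 20.5%). The antisense genes were above it on at least 5 arrays in 5 of 13 cases, and the lncRNA: genes in 19 of 75. A probe set under this percentile gives no evidence of a transcript, and equally none that it is absent from the cells.

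**Figure D1:**
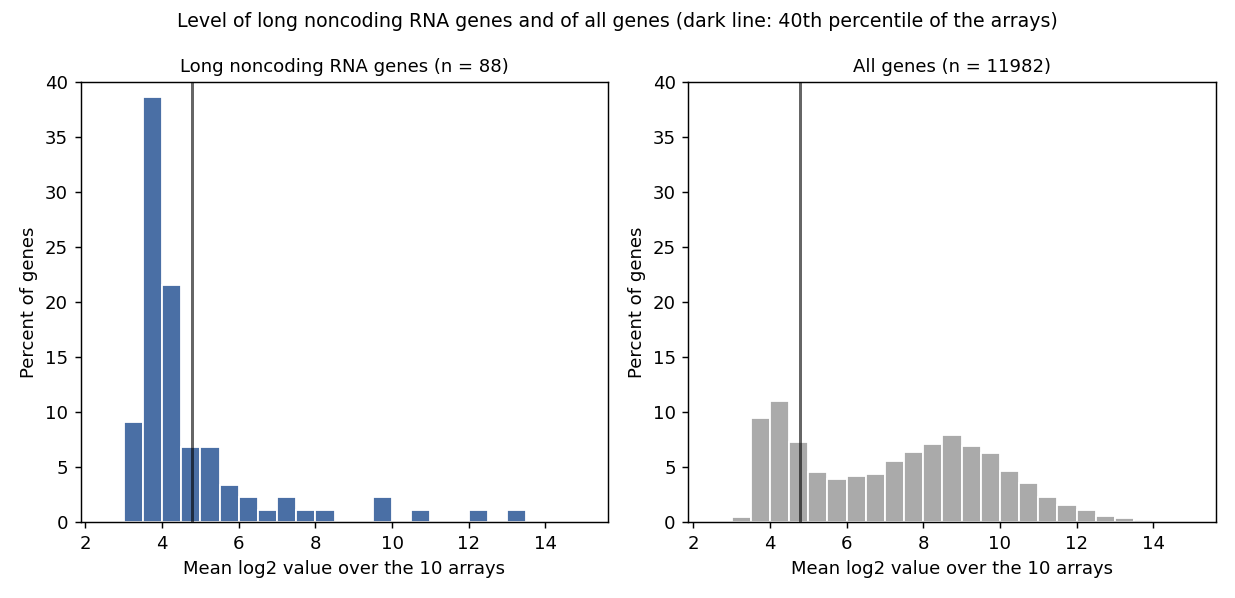
Distribution of the mean log2 value over the 10 arrays (horizontal axis) for the 88 long noncoding RNA genes (left) and for all 11982 genes (right), as percent of genes (vertical axis). The dark line spans the 40th percentiles of the arrays, 4.75 to 4.84. The long noncoding RNA genes are gathered to the left of the line, with 24 above it on at least 5 arrays.

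The 17 genes above the percentile on all 10 arrays were, from the brightest down, lncRNA:CR42862, lncRNA:alphagamma-element:CR32865, lncRNA:mimi, lncRNA:CR32368, lncRNA:CR42549, lncRNA:CR30055, lncRNA:CR43242, asRNA:CR43944, asRNA:CR31084, lncRNA:CR31044, lncRNA:CR31781, lncRNA:CR9162, lncRNA:CR43785, asRNA:CR43476, lncRNA:CR44036, lncRNA:iab8 and asRNA:CR43964. Signals of different probe sets are not levels of different transcripts, so this order is one of array signal. A further 7 were above it on 5 to 9 arrays. Of these, lncRNA:CR33942 was above on 4 Cha and 5 Gad arrays, lncRNA:CR33938 and asRNA:CR42871 on 3 and 5, lncRNA:cherub on 4 and 4, lncRNA:CR43762 on 5 and 3, lncRNA:CR32027 on 1 and 5, and lncRNA:CR42646 on all 5 Cha arrays and on 0 Gad arrays. Just outside the limit of 5 arrays were lncRNA:CR43751 (4 arrays), lncRNA:CR42746 and lncRNA:CR43337 (3 each) and asRNA:CR32252 (1). lncRNA:CR43751 averaged 4.79 in Cha and 4.76 in Gad, and lncRNA:CR32027, just inside, 4.65 in Cha and 4.96 in Gad.

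The genomic setting of the genes was taken from the RefSeq gene table of fly assembly Release 6, where all 88 symbols were found. The files name no genome build, so no coordinates are given. Of the 88 genes, 42 overlap another annotated gene, and 12 of the 24 expressed ones do. The median annotated length was 1738 bp for the 24 and 1058 bp for the other 64. By chromosome arm, 22 of the 88 lie on 2L, 11 on 2R, 18 on 3L, 30 on 3R and 7 on X. None of the 7 X-linked genes was among the 24, which divide into 4 on 2L, 4 on 2R, 6 on 3L and 10 on 3R.

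Between Cha and Gad, 5 of the 88 genes passed the threshold (limma, Benjamini-Hochberg adjusted p under 0.05 over all 11982 genes). This is 5.68%, against 18.5% of all genes. Among the 24 of the 88 with a mean above the percentile, 5 passed, or 20.8%, which is not to be set against the unfiltered 18.5%. Higher in Cha were lncRNA:CR42646, lncRNA:CR9162 and asRNA:CR43476, 3 genes or 3.41%, against 8.21% of all genes. Higher in Gad were lncRNA:CR31044 and lncRNA:CR33942, 2 genes or 2.27%, against 10.2%. In 4 genes, or 4.55% against 13.5% of all genes, the values of the groups did not overlap. The median difference, Cha minus Gad, was 0.06 for the 88 genes and 0.04 for all genes, and in 82 of the 88 it was under 0.5 in size. At an unadjusted p under 0.05 there were 14 of the 88 genes (15.9%), against 3809 of all genes (31.8%). Among the 24 genes above the percentile on at least 5 arrays there were 12 (50%), not to be set against the unfiltered 31.8%. Genes under the percentile on every array, 68.2% of the 88 and 20.5% of all genes, enter the shares of the 88 and of all genes. In a fit limited to genes above it on at least 5 arrays, 2178 of 8934 genes passed, and 5 of the 24 long noncoding RNA genes. lncRNA:CR42646 is among these 24 through its Cha arrays alone. A matching share of all genes at an unadjusted p was not computed here.

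None of the 60 genes under the percentile on every array passed the threshold in limma. Their differences ran from -0.18 to 0.32, and 2 of them had an unadjusted p under 0.05. Signal near the floor limits differences, so the lack of calls says little about these 60 genes. The share called among all genes under the percentile on every array was not computed here. All 5 genes that passed were above the percentile on at least 5 arrays, lncRNA:CR42646 through its Cha samples alone. Leaving out single arrays moved the count of 5 between 3 (without Gad replicate 3) and 8 (without Cha replicate 4).

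**Figure D2:**
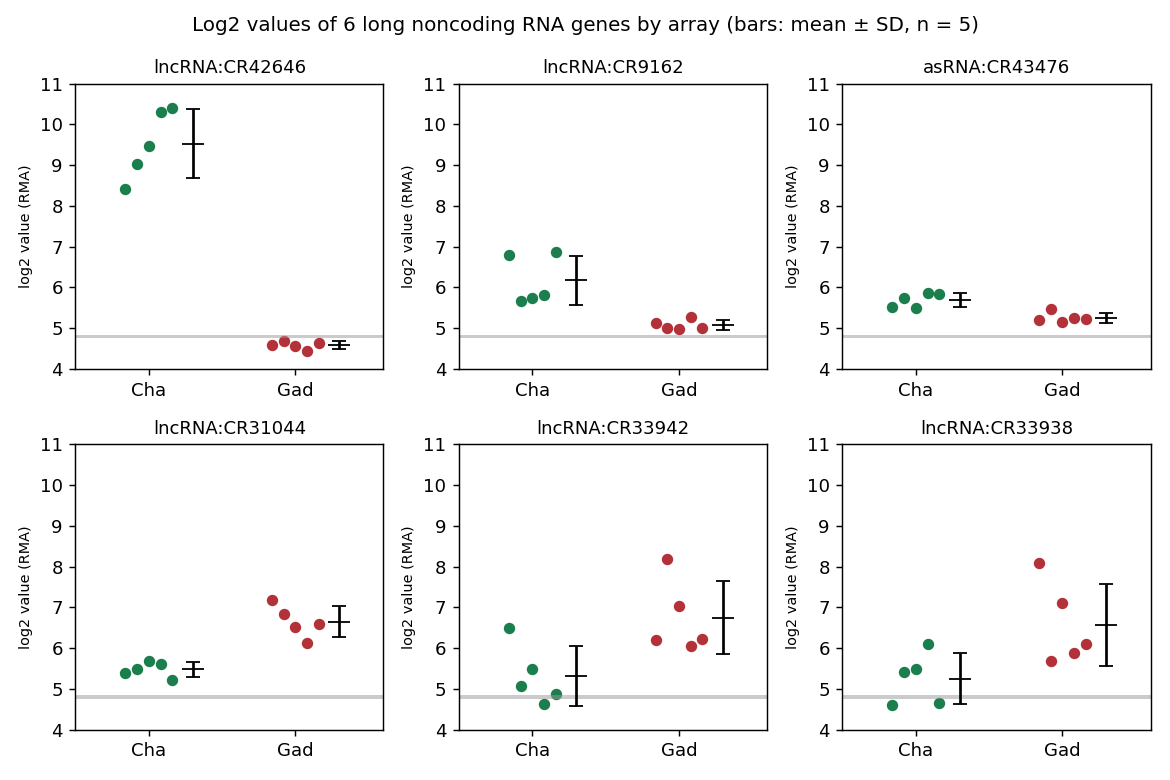
Log2 values of 6 long noncoding RNA genes on each array (points, Cha left in green, Gad right in red), with the mean and SD of the 5 arrays as bars; the grey band spans the 40th percentiles of the arrays. lncRNA:CR42646 is far above the band on all Cha arrays and under it on all Gad arrays, lncRNA:CR31044 is higher on every Gad array, and the groups overlap for lncRNA:CR33942 and lncRNA:CR33938.

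lncRNA:CR42646, an lncRNA on arm 2R with no function known here, was the one member with signal in Cha alone. It read 8.41, 9.04, 9.48, 10.31 and 10.39 in the Cha samples, against 4.59, 4.69, 4.55, 4.43 and 4.64 in the Gad samples. Every Cha value was well above the 40th percentile, and every Gad value was under it. The means were 9.53 ± 0.84 in Cha and 4.58 ± 0.10 in Gad (SD, n = 5 each), a difference of 4.95 with SE 0.33 (95% interval 4.22 to 5.68, adjusted p = 1.199e-05). On the linear scale this is 30.9-fold. Both figures depend on the floor of the Gad signal. Of the 11982 genes, 4 were above the percentile on all Cha arrays and no Gad array. They were this gene, CG14535, CG17930 and Lip3.

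The protein-coding genes next to lncRNA:CR42646 gave no call. CG10417 differed by 0.22 (adjusted p = 0.251) and stw by -0.39 (adjusted p = 0.0778), and both were bright in both groups. The strain, driver and reporter differ with the groups, and their part in this difference cannot be told apart from that of the cell type. In bulk samples such as these, a transcript in fewer cells and less of it per cell cannot be told apart.

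lncRNA:CR31044 is the primary transcript of 2 microRNA genes: RefSeq lists pri-mir-279_mir-996 as its synonym, and mir-279 and mir-996 lie within it on arm 3R. The products share a seed, and in the fly miR-279 is known for limiting the formation of carbon dioxide-sensing neurons. The transcript read 5.38, 5.5, 5.69, 5.62 and 5.23 in the Cha samples, against 7.17, 6.83, 6.53, 6.13 and 6.59 in the Gad samples. Every Gad value was above every Cha value, and all 10 were above the 40th percentile. Means were 5.48 ± 0.18 in Cha and 6.65 ± 0.38 in Gad (SD, n = 5 each), a difference of -1.17 with SE 0.18 (95% interval -1.55 to -0.78, adjusted p = 0.001809), or 2.25-fold higher in Gad.

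The array does not measure the mature microRNAs. Of 4 genes known as targets of miR-279, a list added after the data were seen, none passed the threshold in limma and 1 had an unadjusted p under 0.05. Differences, Cha minus Gad, were 0.46 for the neuronal transcription factor gene nerfin-1 (adjusted p = 0.188) and -0.38 for the transcription factor gene esg (0.344). For Stat92E the difference was -0.22 (adjusted p = 0.22), and for upd1, a ligand gene of the Stat92E pathway, -0.52 (0.149). At the locus itself, the next genes Cyt-c1L, a cytochrome c1-like gene, and eEF1gamma, a translation elongation factor gene, differed by 0.31 (adjusted p = 0.432) and -0.19 (0.332).

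lncRNA:CR9162, on arm 2L and without a known role here, was higher in Cha. It read 6.79, 5.67, 5.73, 5.81 and 6.87 in the Cha samples, against 5.13, 5, 4.97, 5.28 and 5.01 in the Gad samples. The groups did not overlap, and Cha replicates 1 and 5 stood about 1 log2 unit above the other Cha samples, while the Gad samples lay together. The means of 6.17 ± 0.60 in Cha and 5.08 ± 0.13 in Gad (SD, n = 5 each) differ by 1.09 with SE 0.24 (95% interval 0.56 to 1.63, adjusted p = 0.01163), which is 2.14-fold. Its neighbours in the gene table, both noncoding, were not analysed here.

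asRNA:CR43476, an antisense RNA on arm 3R, had the smallest difference of the 5 genes. It read 5.51, 5.75, 5.5, 5.86 and 5.85 in the Cha samples, against 5.21, 5.47, 5.14, 5.24 and 5.22 in the Gad samples. The lowest Cha and the highest Gad value were nearly equal but did not cross. Means of 5.69 ± 0.18 in Cha and 5.25 ± 0.13 in Gad (SD, n = 5 each) gave a difference of 0.44 with SE 0.11 (95% interval 0.20 to 0.67, adjusted p = 0.01765), a 1.35-fold change. The call was lost without Gad replicate 3 (adjusted p = 0.0509), with a replicate block (0.0511), without Cha replicate 2 and Gad replicate 5, whose descriptions carry the same letter (0.0886) and with the mean of its probe sets (a difference of 0.24, adjusted p = 0.0738).

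A dimmer probe set of asRNA:CR43476 was under the percentile on all arrays and differed by 0.04 (adjusted p = 0.855 over all probe sets). The gene lies over the protein-coding CG42534, whose own probe set averaged 4.01 in Cha and 3.97 in Gad and was under the percentile on every array. The next gene, side, which encodes a guidance protein for motor axons, differed by -0.20 (adjusted p = 0.188).

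lncRNA:CR33942, on arm 2R, was higher in Gad with much spread. It read 6.5, 5.06, 5.5, 4.62 and 4.87 in the Cha samples, against 6.2, 8.19, 7.03, 6.06 and 6.23 in the Gad samples. The groups overlapped, since Cha replicate 1 exceeded 3 of the Gad samples, and Gad replicate 2 was the highest of all. Means were 5.31 ± 0.74 in Cha and 6.74 ± 0.89 in Gad (SD, n = 5 each), a difference of -1.43 with SE 0.45 (95% interval -2.42 to -0.45, adjusted p = 0.04738), or 2.70-fold higher in Gad. The call was lost without any 1 array other than Cha replicate 1 and Gad replicate 4, with adjusted p from 0.0586 to 0.108. It was also lost under 7 of 10 other settings, with adjusted p from 0.0501 (median centring) to 0.118 (without Cha replicate 2 and Gad replicate 5).

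Beside lncRNA:CR33942, the heparan sulfate sulfotransferase gene Hs3st-A differed the other way. It read 8.95, 8.88, 8.6, 8.29 and 8.54 in the Cha samples, against 7.31, 6.64, 7.37, 8.12 and 7.83 in the Gad samples, higher in Cha by 1.20 (adjusted p = 0.008345). The lowest Gad value of Hs3st-A and the highest Gad value of lncRNA:CR33942 were on the same array, Gad replicate 2. That array was also the lowest Gad array at other loci, for mura (8.36) and lncRNA:mimi (9.25). A relation between Hs3st-A and lncRNA:CR33942 was not tested. Vps51, a vesicle tethering gene on the other side, differed by 0.13 (adjusted p = 0.496).

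**Figure D3:**
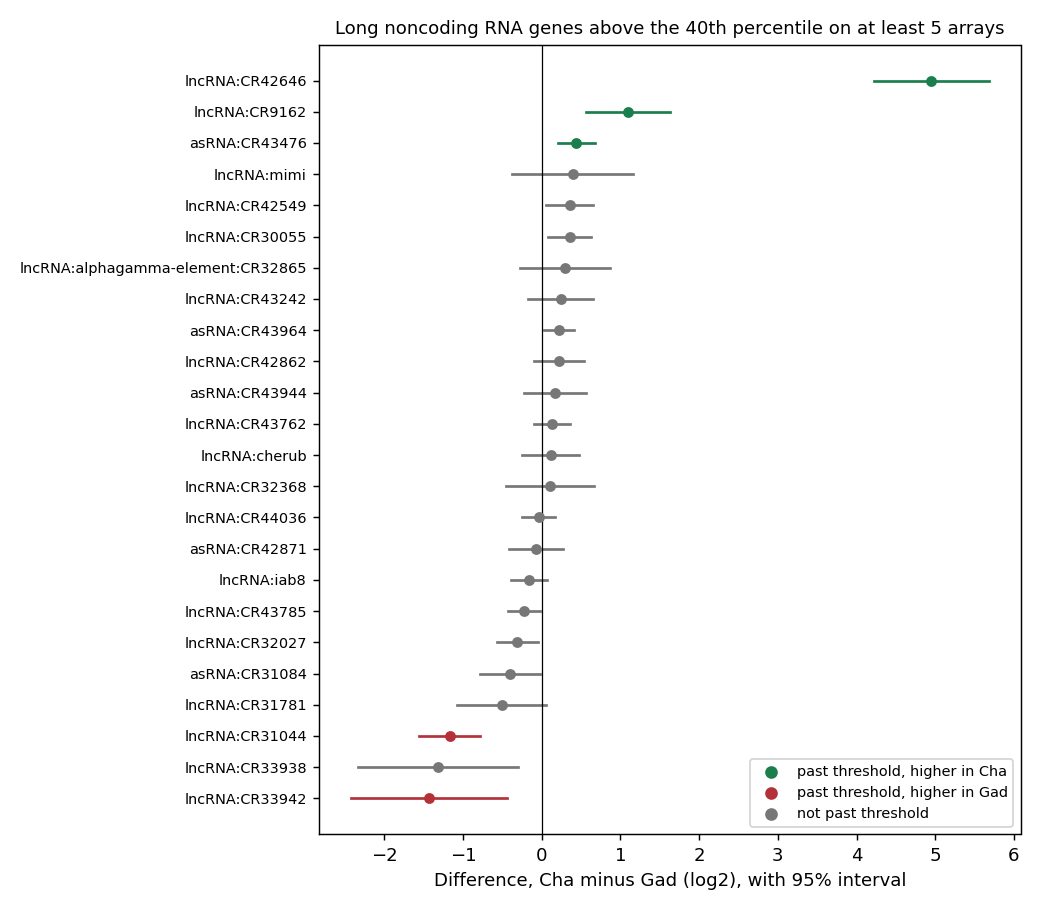
Difference, Cha minus Gad, on the log2 scale (horizontal axis) for the 24 long noncoding RNA genes above the 40th percentile on at least 5 arrays, with the 95% interval of each as a line. The 3 green genes were past the threshold and higher in Cha and the 2 red genes past it and higher in Gad; the difference of lncRNA:CR42646, 4.95, depends on the floor of its Gad signal.

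lncRNA:CR33938 had a difference nearly as large and did not pass. It read 4.61, 5.41, 5.5, 6.1 and 4.65 in the Cha samples, against 8.09, 5.69, 7.12, 5.88 and 6.09 in the Gad samples. Gad replicates 1 and 3 were high and Cha replicate 4 lay above the other 3 Gad samples. The difference was -1.32 with SE 0.46 (adjusted p = 0.07065), and without Cha replicate 4 it was -1.53 (adjusted p = 0.0382). Other fits in limma without 1 array gave no call, with adjusted p up to 0.159. Leaving out Cha replicate 4 also raised the calls over all genes from 2212 to 2614. The gene lies on arm 3R among cuticle protein genes, of which Ccp84Ac read 5.34 to 6.14 in Cha and 5.61 to 5.87 in Gad. Its probe set, like that of lncRNA:CR33942, is of the s_at kind.

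A few genes lay near the threshold with small differences. lncRNA:CR30055, which overlaps the annotated gene of the corepressor Sin3A, read 8.19 to 8.82 in Cha and 8.14 to 8.27 in Gad, with means that differed by 0.35 (adjusted p = 0.0664). Without Cha replicate 4, its lowest Cha sample, the adjusted p was 0.0111. Other fits in limma without 1 array gave no call, with adjusted p up to 0.138. lncRNA:CR42549, which overlaps the ubiquitin ligase gene mura, read 9.39 to 10.01 in Cha and 9.21 to 9.59 in Gad. Its means differed by 0.36 (adjusted p = 0.0929). Fits in limma without 1 array gave adjusted p from 0.0282 (without Cha replicate 3, the only call) to 0.197. mura itself differed by 0.19, and the next gene by, which encodes a tensin, by -0.54 (adjusted p = 0.0431). asRNA:CR43964 differed by 0.22 (adjusted p = 0.102), and the next gene Mctp, a calcium-binding membrane protein gene, was higher in Cha by 0.46 (adjusted p = 0.0296).

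On the Gad side, lncRNA:CR31781 read 5.38, 5.57, 5.07, 6.51 and 5.18 in the Cha samples, against 5.54, 6.17, 6.01, 6.24 and 6.3 in the Gad samples. Cha replicate 4 was the highest of all 10. The difference was -0.51 (adjusted p = 0.204), and without that array it was -0.75 (adjusted p = 0.0105). Other fits in limma without 1 array gave no call, with adjusted p up to 0.372. asRNA:CR31084 read 6.89, 6.13, 6.25, 6.27 and 6.33 in the Cha samples, against 6.52, 6.79, 7.27, 6.62 and 6.69 in the Gad samples. Cha replicate 1 stood apart from the other Cha samples. The difference was -0.41 (adjusted p = 0.13), and -0.54 (adjusted p = 0.0317) without that array. For this gene too, other fits without 1 array gave no call, with adjusted p up to 0.274. lncRNA:CR43785, which has no assigned role, differed by -0.22 (adjusted p = 0.125).

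The 4 brightest genes gave no call from their brightest probe sets. lncRNA:CR42862, on arm 3L, read 12.81 to 13.58 in Cha and 12.77 to 13.16 in Gad, with means that differed by 0.22 (adjusted p = 0.336). With the mean of its probe sets, the gene passed the threshold in limma, with a difference of 0.43 (adjusted p = 0.0374). Its 2 dimmer probe sets, both above the percentile on all arrays, gave different answers: one differed by 0.78 (adjusted p = 0.02089 over all probe sets) and the other by 0.29 (0.204). Among the 17 further probe sets of the 12 genes with several, the one that differed by 0.78 alone passed. Of these 17, 14 were under the percentile on every array. Over all 18769 probe sets, 2657 passed.

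lncRNA:alphagamma-element:CR32865 is a repeated transcript of a heat shock locus that also holds Hsp70 genes and is known for its induction by heat. It read 11.92 to 13.39 in Cha and 11.87 to 12.81 in Gad, with means that differed by 0.30 with SE 0.26 (adjusted p = 0.472). The probe set is of the x_at kind, and the Hsp70 genes on both sides of it were not analysed here. Hsf, the heat shock transcription factor gene, differed by 0.21 (adjusted p = 0.356).

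lncRNA:mimi, which overlaps the microRNA gene mir-9381 on arm 3R, read 10.67, 11.23, 11.54, 11.05 and 11.07 in the Cha samples, against 11.1, 9.25, 10.85, 11.34 and 11.06 in the Gad samples. Apart from Gad replicate 2, the groups lay over each other, and the difference was 0.39 with SE 0.35 (adjusted p = 0.484). The neighbouring CG31140 was also lowest on Gad replicate 2, at 9.15, and differed by 0.67 (adjusted p = 0.138). lncRNA:CR32368, a short gene of 410 bp, read 9.05 to 10.77 in Cha and 9.65 to 9.94 in Gad, with means that differed by 0.11 (adjusted p = 0.812). lncRNA:CR43242 differed by 0.24 (adjusted p = 0.423), asRNA:CR43944, which overlaps the pantothenate kinase gene fbl, by 0.17 (0.553), lncRNA:CR43762 by 0.13 (0.436) and lncRNA:CR44036 by -0.04 (0.833).

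Of 24 long noncoding RNAs with a known function on a list of textbook examples, 3 were measured under their lncRNA: symbol. None of these 3 passed the threshold in limma or had an unadjusted p under 0.05. Uhg3 and Uhg4, also on the list, were measured under symbols without the prefix and are given further on. The dosage compensation RNAs roX1 and roX2 and the nuclear stress RNA Hsromega were not analysed here. lncRNA:iab8, a long transcript of the bithorax complex that carries a microRNA and represses Hox genes in the posterior nervous system, read 5.32, 5.07, 5.07, 5.39 and 5.16 in the Cha samples, against 5.54, 5.39, 5.35, 5.14 and 5.39 in the Gad samples. The groups overlapped, and the difference was -0.16 with SE 0.10 (95% interval -0.38 to 0.07, adjusted p = 0.332). The annotated gene spans 92116 bp, and its 4 other probe sets were under the percentile on all arrays, with differences from -0.07 to 0.20.

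lncRNA:cherub is known from dividing neural stem cells of the fly larva, where it binds the RNA-binding protein Staufen and is passed to 1 daughter cell. It read 4.96, 5.34, 5.55, 4.81 and 4.75 in the Cha samples, against 4.77, 5.1, 5.2, 4.78 and 5 in the Gad samples. Values ran from just under the 40th percentile up to 5.55, and the groups overlapped. The difference was 0.11 (95% interval -0.25 to 0.48, adjusted p = 0.684). stau, the Staufen gene, read 9.6, 10.03, 9.61, 10.04 and 9.77 in the Cha samples, against 8.95, 9.34, 8.84, 9.36 and 9.23 in the Gad samples, higher in Cha by 0.67 (adjusted p = 0.00818).

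lncRNA:noe was under the percentile on all 10 arrays, with means of 3.52 in Cha and 3.47 in Gad that differed by 0.05 (adjusted p = 0.758). Uhg3 and Uhg4, hosts of small nucleolar RNAs that RefSeq classes as lncRNA although their symbols fall outside the rule, were bright. They differed by 0.27 (adjusted p = 0.462) and 0.58 (adjusted p = 0.25).

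At several loci the neighbouring or overlapping protein-coding gene differed between Cha and Gad while the noncoding gene gave no call. lncRNA:CR32027 overlaps Indy, a citrate transporter gene, which read 10.18, 9.33, 9.38, 10.1 and 10.4 in the Cha samples, against 10.95, 11.3, 11.48, 10.98 and 11.09 in the Gad samples. Indy was thus higher in Gad without overlap, with a difference of -1.28 (adjusted p = 0.003228), and lncRNA:CR32027 differed by -0.31 (adjusted p = 0.0929) and was over the percentile on all Gad arrays and 1 Cha array. asRNA:CR42871 overlaps CG6650, which differed by -1.40 (adjusted p = 0.00652), and lies beside endos, an inhibitor gene of the phosphatase PP2A in cell division, which differed by -0.47 (adjusted p = 0.0475). The antisense gene itself differed by -0.07 (adjusted p = 0.792).

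asRNA:CR31084, which differed by -0.41 (adjusted p = 0.13 in limma), lies beside CG6503, which differed by -1.92 (adjusted p = 0.0313). lncRNA:CR42862 overlaps CG33229, which differed by 0.24, and lies near the ion channel gene pyx and CG42846, which were higher in Gad, with differences of -0.72 (adjusted p = 0.00545) and -1.32 (adjusted p = 0.0277). Over all 88 genes, 71 had a measured protein-coding gene overlapping or next to them, 132 in all. Of these 132, 7 were higher in Cha (5.3%, against 8.21% of all genes) and 15 higher in Gad (11.4%, against 10.2%), shares near those of all genes. Around the 24 expressed genes, 2 of 39 were higher in Cha (5.13%) and 7 higher in Gad (17.9%). Whether noncoding and coding probe sets share signal at overlapping loci was not tested.

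**Figure D4:**
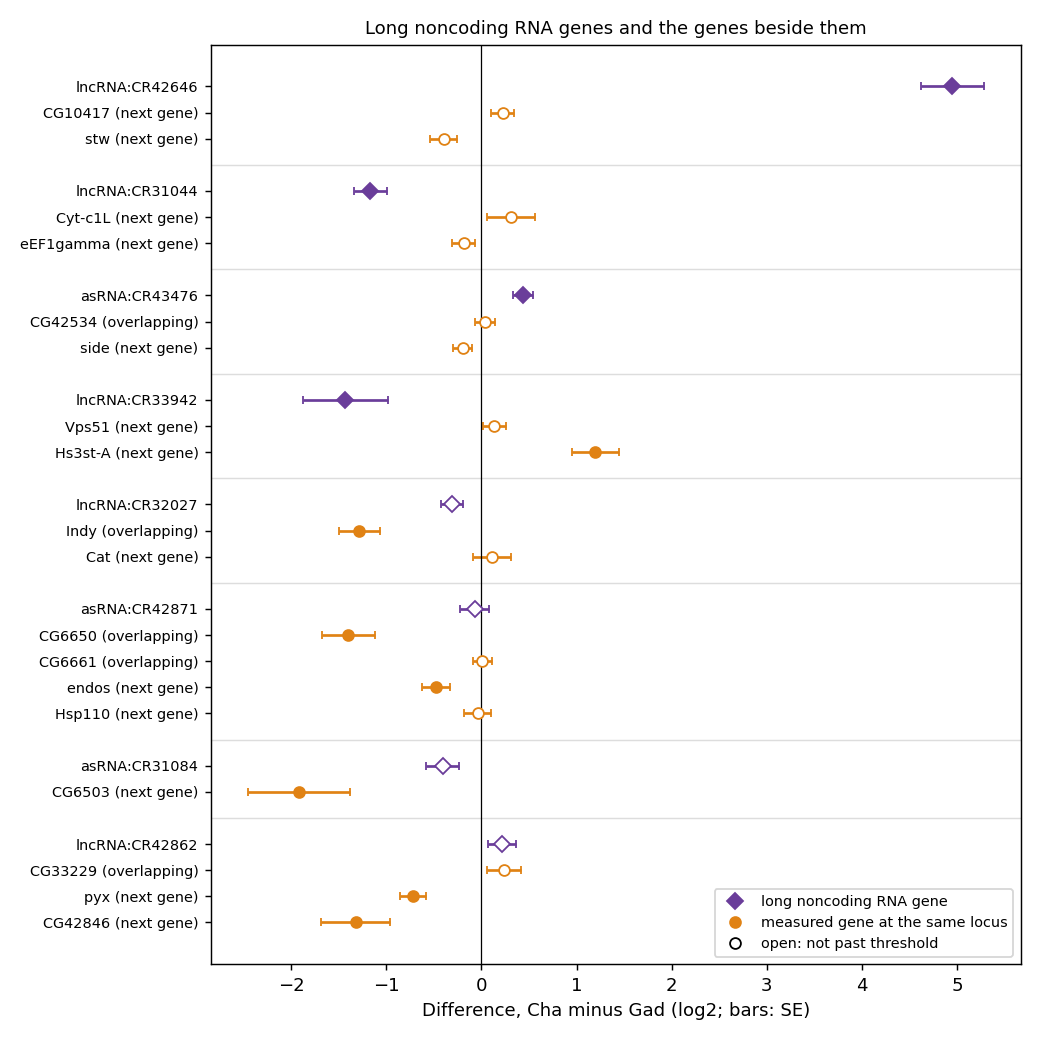
Difference, Cha minus Gad, on the log2 scale with SE bars, for 8 long noncoding RNA genes (diamonds) and the measured genes that overlap them or lie next to them (circles); filled symbols were past the threshold. Hs3st-A lies on the other side of 0 from lncRNA:CR33942, and Indy, CG6650 and CG6503 differ by more than the noncoding genes at their loci.

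Genes listed for proteins tied to known long noncoding RNAs were counted in the same fit. Over 4 lists, 6 of 30 measured genes passed (20%), near the 18.5% of all genes, and 3 passed without any 1 of Cha replicates 1, 2 and 5 and Gad replicates 2 and 5. Of 9 measured genes on a list for the roX RNAs and dosage compensation, 2 were higher in Cha and none in Gad. Sxl, an RNA-binding protein of sex determination and not itself a roX partner, differed by 0.66 (adjusted p = 0.0463). JIL-1, a histone kinase, differed by 0.76 (adjusted p = 0.0455). The list's median difference was 0.08. Of 7 genes for proteins of the nuclear speckles built on Hsromega, 1 was higher in Cha and none in Gad, with a median of 0.36. That gene, Hrb87F, encodes an RNA-binding protein of the hnRNP family and averaged 11.04 in Cha and 6.88 in Gad, higher in Cha by 4.16 (adjusted p = 1.955e-07).

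Of 4 small nucleolar RNA protein genes none passed the threshold in limma or had an unadjusted p under 0.05 (median 0.08). Of 10 genes of nuclear RNA machinery, 2 were higher in Cha and 1 in Gad (median 0.03). Pabp2, the nuclear poly(A) binding protein gene, differed by 1.11 (adjusted p = 0.00147), Ars2, which acts at the RNA cap, by 0.39 (0.0173) and the exosome subunit gene Rrp4 by -0.60 (0.0301).

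Markers of other cell types differed between the groups beside these results. Summarised as the mean log2 level of a list on each array, glial markers (11 genes, 5 higher in Gad) lay at 8.19 to 8.57 in Cha and 8.7 to 8.89 in Gad. Muscle markers (10 genes, 6 higher in Gad) lay at 7 to 8.12 in Cha and 7.84 to 8.53 in Gad, and fat body markers (6 genes, 4 higher in Gad) at 5.96 to 6.58 in Cha and 7.42 to 9.22 in Gad. Neural stem cell markers (7 genes, 3 higher in Gad) lay at 7.52 to 8.84 in Cha and 8.96 to 9.59 in Gad, and those of dividing cells (9 genes, 7 higher in Gad) at 7.09 to 8.02 in Cha and 8.25 to 8.45 in Gad.

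Hemocyte markers (13 genes, 2 higher in Cha and 4 in Gad) lay at 7.46 to 8.4 in Cha and 7.79 to 8.3 in Gad, and germ line markers (4 genes, 2 and 1) at 6.61 to 7.09 in Cha and 6.57 to 6.9 in Gad. Neuronal markers (9 genes, 7 higher in Cha) lay at 10.11 to 10.85 in Cha and 8.97 to 10.12 in Gad. Of the 11 glial genes, repo among them, wrapper was the only one under the percentile on all arrays. Of the 4 germ line genes, vas was under it on all arrays, while bam and aub (higher in Cha) and piwi (higher in Gad) were above it on all 10. The part of these cell types in the differences of lncRNA:CR42646, lncRNA:CR9162, asRNA:CR43476, lncRNA:CR31044 and lncRNA:CR33942 was not tested.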

How the data were processed

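RNA of 5 Cha and 5 Gad sorted samples was measured on 1-colour Affymetrix arrays. The authors deposited a table of log2 values; RMA is named in the submitters' processing notes, with its version not given in the sources used here, and no scanner output entered this work. The number of arrays limits the precision. Of 18952 rows, 183 control probe sets were left out of the 18769 tested. The platform annotation gives 1 symbol to 13647 probe sets, several to 402 and none to 4720. Each gene was read from its brightest probe set by mean. Cha and Gad were compared with limma 3.58.1 in R 4.3.3 (lmFit, eBayes), with Benjamini-Hochberg adjustment over all 11982 genes and a threshold of 0.05, and separately over all probe sets; the procedure was tested on simulated data. No filter on dim values was applied. Arrays were not normalised again.

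The members and gene lists were chosen with earlier results of these data known; the lists of miR-279 targets, heat shock genes at the alphagamma-element locus, other noncoding hosts and stau were added after the values were seen. Named were members of known function, members past the threshold, the 10 members with the highest mean, and neighbours and genes of the protein lists by smallest p. The other members above the percentile on at least 5 arrays, and the genes beside them, were named after their values were seen. Sample numbers do not pair Cha and Gad: deviations of same-numbered samples correlated at -0.368 to 0.034. Alternatives covered normalisation, filter, prior, array weights, probe set choice, percentile, a block for sample number, and each array left out.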

Additional observations from a re-analysis of the deposited data

Results flagged for a closer look

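A sample was looked at again where its gap to the nearest of the other 4 in its group was a large share of the group's range (above Dixon's 95% limit). Of 50 groups of 5 values, from the named long noncoding RNA genes, 3 met this; chance alone flags about 1 in 20 groups. lncRNA:mimi read 9.25 on Gad replicate 2, against 10.85 for the nearest Gad sample, a gap of 0.767 of the range. lncRNA:CR32368 read 9.65 on Gad replicate 4, against 9.89 for the nearest, a gap of 0.81 of a narrow range. asRNA:CR31084 read 6.89 on Cha replicate 1, against 6.33 for the nearest, a gap of 0.745 of the range.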

How the results depend on the processing

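lncRNA:CR42646, lncRNA:CR31044 and lncRNA:CR9162 kept their direction and call under all 10 other settings and in all 10 fits that left out 1 array. Over 25 named genes, 461 of 499 values kept direction and side of the threshold, 19 lost a call, 10 gained one and 9 changed sign, none of them called. The genes past the threshold numbered 2212, but 1113 with a replicate block, 1055 without the 2 arrays whose descriptions share a letter code, and 1377 to 2614 with 1 array left out. Long noncoding RNA genes past it were 5, but 3 under the block and 3 without the letter-code arrays, 2 at an adjusted p under 0.01, and 3 to 8 with 1 array left out. Those higher in Cha were 3, but 5 with array weights and 2 to 5 with 1 array left out. Those higher in Gad were 2, but 1 under a second quantile normalisation, cyclic loess, median centring, the replicate block, without the letter-code arrays, and with Gad replicates 4 and 5, the most alike pair, averaged (chosen after seeing the data), and 1 to 3 with 1 array left out; lncRNA:CR33942 was the gene lost. It was lost with array weights too (-1.10, adjusted p = 0.0941), where lncRNA:CR31781 gained a call and the count stayed at 2. The cause of these changes was not tested. Genes of the 4 protein lists past the threshold were 6, and 3 to 7 with 1 array left out. Genes above the percentile on at least 5 arrays were 24, but 14 with the 50th percentile and 10 with a percentile over genes in place of probe sets. On all 10 arrays they were 17, but 26 with the 30th percentile, 9 with the 50th and 8 over genes. Signs changed for lncRNA:iab8 (0.002) and lncRNA:CR44036 (0.026) with the mean of a gene's probe sets, for lncRNA:noe (-0.003) with cyclic loess and for asRNA:CR42871 (0.045) without the letter-code arrays. With 1 array left out they ran from -0.004 to 0.196 for lncRNA:cherub, from -0.003 to 0.087 for lncRNA:noe, from -0.094 to 0.336 for lncRNA:CR32368, from -0.177 to 0.023 for asRNA:CR42871 and from -0.093 to 0.005 for lncRNA:CR44036. Signal near the floor limits the 60 genes under the percentile on every array.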
